A study of Mus musculus with 11 samples.

Results

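The 9 genes described here serve glucose transport and glucose sensing in the pancreatic islet. They were chosen by symbol from the 55536 genes of each count table, by no measured value but with earlier results of these data known. The genes were Slc2a2, Slc2a1, Abcc8, G6pc2, Pcx, Slc30a8, Glul, Gpd2 and Ucn3. Islets of wild type C57BL/6J mice were profiled by bulk RNA-seq in 4 groups. Females aged 9 weeks at the start went through 3 consecutive pregnancies and were studied 3 weeks after the last delivery (multipara), or were kept as littermates that were not mated (virgin). Before islet isolation some mice of each kind received S-961, a peptide antagonist of the insulin receptor, by intraperitoneal injection for 3 days. The labels gave 3 virgin S-961, 4 multipara S-961, 2 virgin untreated and 2 multipara untreated libraries. All libraries were from female mice without a transgene, and the untreated libraries are labelled as having had no treatment rather than a vehicle. The study counts as many mice as libraries in each S-961 group. For the untreated groups no source used here ties a library to a separate animal, so that p-values measure the spread between libraries, which may be technical there.

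Beta cells sense glucose by metabolising it. Glucose enters the mouse beta cell through GLUT2, encoded by Slc2a2, is phosphorylated, and is broken down to pyruvate, and the ATP that results closes the KATP channel, so that the membrane depolarises and insulin is released. G6pc2 encodes an islet glucose-6-phosphatase, which reverses that phosphorylation. Gpd2 carries glycolytic electrons into the mitochondrion, Pcx, pyruvate carboxylase, refills the citric acid cycle, and Glul makes glutamine from glutamate. Abcc8 encodes SUR1, the regulatory subunit of the KATP channel, Slc30a8 encodes ZnT8, the transporter that loads insulin granules with zinc, and Ucn3 encodes urocortin 3, a peptide released with insulin that acts on delta cells.

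The libraries held 22028507 to 32234146 counts, and members had at least 115 counts in each library. Levels are in CPM, counts per 1000000 counts of the library, after TMM scaling of all 11 libraries together. The libraries expressed the defining islet genes. Ins1 and Ins2 together took 35.3% to 41.4% of the counts in the 4 untreated libraries and 13.2% to 20.7% in the 7 S-961 libraries. The 10 markers of acinar cells, the digestive enzyme cells around the islet, summed to 56.4 to 185 CPM without treatment and to 1897 to 14353 CPM with S-961, none of them at 0. The library labelled multipara S-961 4 stood apart from its group, with 11.4 CPM summed over 6 cell cycle markers against 125, 247 and 275 in the other multipara S-961 libraries and 9.60 to 27.3 in virgin S-961. The library labelled multipara untreated 1 had 1799 CPM of 5 immune markers against 312 to 338 in the other untreated libraries, and 2384 CPM of red blood cell genes against 157 to 487. The parity labels of the S-961 libraries could not be checked against a targeted gene. For islets with S-961 the study reports lower cell cycle genes, Cdk1 among them, and higher Lrrc55 in multipara than in virgin. Under these labels both pointed the other way. Cdk1 had 0.711 to 1.39 CPM in virgin S-961 and 0.768 to 33.7 in multipara S-961. Mki67, a proliferation marker, had 43.5 to 93.8 CPM in multipara S-961 1 to 3, 3.93 in multipara S-961 4 and 3.04 to 13.9 in virgin S-961. Lrrc55, an auxiliary subunit of potassium channels, had 22.8 and 24.9 CPM in multipara untreated and 0.727 and 0.846 in virgin untreated. With S-961 it had 0.596, 0.320 and 1.96 CPM in multipara 1 to 3, 4.43 in multipara 4 and 5.34 to 7.54 in virgin. For Lrrc55 too, multipara S-961 4 was thus the library of its group nearest to virgin S-961. The S-961 parity labels may therefore not be right. Every direction by parity with S-961, each interaction, and each S-961 contrast within virgin or multipara islets hold only under the labels as given. Where leaving out 1 library ended a call for a member, the value without it stands beside the result.

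The promoter windows of 6 members are shown first, 250 bases up to the RefSeq transcription start on build GRCm38.p6, each read 5′ to 3′ along the gene's strand. Those of G6pc2, Ucn3, Glul and Pcx belong to the 4 genes that changed with S-961 in both parity groups, and those of Slc2a2 and Slc2a1 to the 2 transporters. RefSeq windows were found for 7 of the 9 members. G6pc2 and Pcx have 2 listed starts, of which the upstream one is printed. Capitals mark TAAT, the core bound by homeodomain factors of which Pdx1 is the best known in the beta cell, and CCAAT, the box bound by NF-Y, on either strand, with no overlap between them.
G6pc2 (chr2:69210823-69211072, plus strand): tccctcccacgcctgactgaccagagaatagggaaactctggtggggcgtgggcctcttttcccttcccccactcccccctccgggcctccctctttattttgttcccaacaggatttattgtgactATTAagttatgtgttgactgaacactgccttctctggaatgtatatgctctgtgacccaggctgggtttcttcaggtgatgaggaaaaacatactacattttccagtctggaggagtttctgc
Ucn3 (chr13:3945350-3945599, minus strand): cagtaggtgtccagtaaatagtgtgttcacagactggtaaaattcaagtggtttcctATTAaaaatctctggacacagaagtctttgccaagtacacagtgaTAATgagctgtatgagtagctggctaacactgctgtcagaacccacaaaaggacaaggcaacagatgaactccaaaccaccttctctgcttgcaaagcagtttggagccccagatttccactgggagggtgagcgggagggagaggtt
Glul (chr1:153899679-153899928, plus strand): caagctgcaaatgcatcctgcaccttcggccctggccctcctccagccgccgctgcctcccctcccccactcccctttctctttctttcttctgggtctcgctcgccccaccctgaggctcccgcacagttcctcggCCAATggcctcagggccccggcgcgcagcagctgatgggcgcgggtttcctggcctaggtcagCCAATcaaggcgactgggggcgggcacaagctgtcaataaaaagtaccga
Pcx (chr19:4510222-4510471, plus strand): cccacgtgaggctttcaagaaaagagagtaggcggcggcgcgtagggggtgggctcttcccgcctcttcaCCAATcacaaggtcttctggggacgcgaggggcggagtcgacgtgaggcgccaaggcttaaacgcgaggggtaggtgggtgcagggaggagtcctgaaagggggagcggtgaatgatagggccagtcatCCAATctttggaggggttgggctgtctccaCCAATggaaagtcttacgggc
Slc2a2 (chr3:28697653-28697902, plus strand): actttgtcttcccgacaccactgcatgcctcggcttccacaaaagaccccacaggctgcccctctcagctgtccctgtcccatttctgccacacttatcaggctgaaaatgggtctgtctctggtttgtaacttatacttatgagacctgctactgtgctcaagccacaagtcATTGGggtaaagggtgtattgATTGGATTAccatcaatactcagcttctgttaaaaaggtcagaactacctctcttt
Slc2a1 (chr4:119108495-119108744, plus strand): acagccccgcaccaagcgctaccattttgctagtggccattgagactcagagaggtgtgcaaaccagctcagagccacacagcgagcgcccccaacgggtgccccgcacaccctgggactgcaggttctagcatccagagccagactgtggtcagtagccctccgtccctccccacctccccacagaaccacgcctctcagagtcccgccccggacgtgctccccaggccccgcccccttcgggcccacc

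In the printed windows, TAAT was found once for G6pc2, at -123 from the start, and once for Slc2a2, at -51. For Ucn3 it was found at 2 places, at -193 and -148. CCAAT was found at -113 and -50 in Glul, at -180, -51 and -21 in Pcx, and at -77 and -56 in Slc2a2. The downstream windows of G6pc2 and Pcx, which are not printed, differed from these. That of G6pc2 held TAAT at -237, -92 and -9. That of Pcx held TAAT at -181 and no CCAAT. G6pc2 and Ucn3, each with TAAT and no CCAAT in its window, changed in opposite directions with S-961. Among all 32851 windows of this length in the table, 54.9% held TAAT and 33.8% held CCAAT on either strand, so that a match is common. The letters CACGTG, in 6.02% of windows, were found in the printed Pcx window at -248, and TGTTTAC, in 3.17%, in none of the members' windows.

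Per length of merged exons, G6pc2 was the most abundant member in every library, at 781 to 4048 CPM per kb. It ranked between 8 and 17 among all genes by count in the S-961 libraries and between 21 and 33 in the untreated ones. Ucn3 followed with 188 to 549 CPM per kb and Slc30a8 with 186 to 404, and these 2 changed places. Ucn3 was above Slc30a8 in 4 of 4 untreated libraries and in 0 of 7 S-961 libraries. Abcc8, at 96.5 to 165 CPM per kb, was below Glul in 4 of 4 untreated libraries and above it in 7 of 7 S-961 libraries. Glul and Slc2a2 did not keep their order, with Glul higher in 9 of 11 libraries. Slc2a2, at 55.7 to 113 CPM per kb, exceeded Pcx in 11 of 11 libraries, Pcx exceeded Gpd2 in 11 of 11, and Gpd2, at 5.32 to 12.1, exceeded Slc2a1, at 1.80 to 4.27, in 11 of 11. Slc2a1, the GLUT1 gene, was thus the lowest member throughout, below Slc2a2 by a factor of 13.5 to 43.0 per kb.

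**Figure D1:**
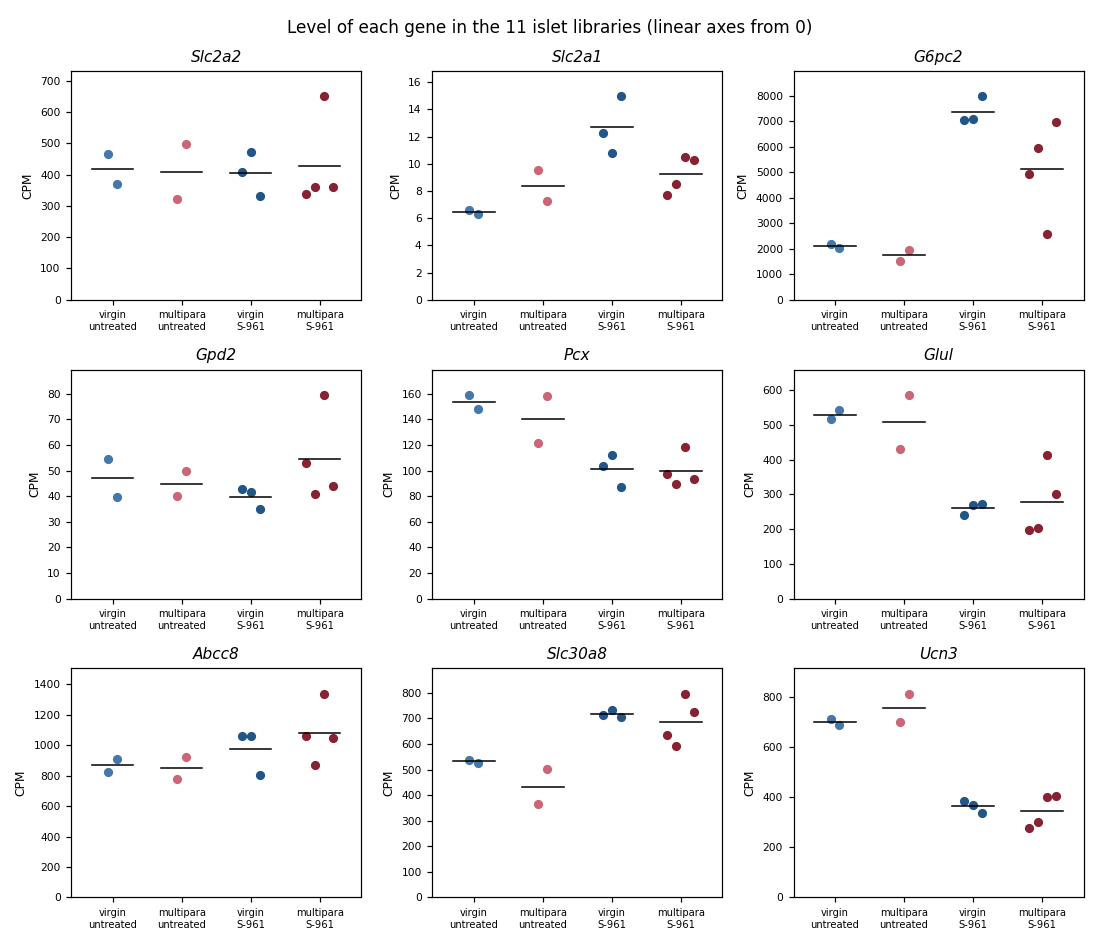
CPM of each of the 9 genes in each library, 1 point per library, with the group mean as a line. G6pc2 was high and Ucn3, Glul and Pcx were low in the S-961 groups, while the 4 groups overlapped for Slc2a2 and Gpd2.

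With S-961, 5 of the 9 members changed in virgin islets and 5 in multipara islets, and 4 of them were the same genes. G6pc2 rose, and Ucn3, Glul and Pcx fell in both parity groups, while Slc2a1 rose in virgin islets and Slc30a8 in multipara islets. Which parity group a change belongs to rests on the S-961 labels, which may not be right. In virgin islets 2 members were higher and 3 lower, where 18.8% of the 17996 genes tested rose and 17.6% fell past an adjusted p of 0.05 by edgeR's quasi-likelihood test. In multipara islets 2 members were also higher and 3 lower, against 18.2% and 19.4% of all genes. In all, 6562 and 6768 genes of the whole table were called, and 5 of 9 members is read against that background. The members' median log2 fold changes were -0.05 in virgin and 0.14 in multipara, beside -0.04 and 0.03 over all genes. Groups did not overlap for 3 members higher and 3 lower in virgin, where 32.8% and 35.5% of all genes did the same. In multipara these were 2 higher and 3 lower, against 24.5% and 24.5% of all genes. The virgin and the multipara contrast share no library. In bulk RNA, fewer beta cells and less RNA per beta cell cannot be told apart, and the part of the acinar rise in these results was not tested.

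With total counts in place of TMM, the median log2 fold change of all genes became 0.43 in virgin and 0.61 in multipara islets. On that scale G6pc2 remained called in both, at 2.26 and 2.12. Ucn3 remained lower in multipara at -0.53 (adjusted p = 0.0392) and was -0.48 in virgin (adjusted p = 0.0815). Glul and Pcx were no longer called in either group. In a fit of the 6 multipara libraries alone, G6pc2 and Ucn3 were called, and Glul, Pcx and Slc30a8 had adjusted p of 0.0841, 0.0767 and 0.0618. Pcx in multipara was the only called value whose sign turned on that scale, to 0.11. Changes of members, and of the other genes named, are therefore to be read relative to the median gene.

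**Figure D2:**
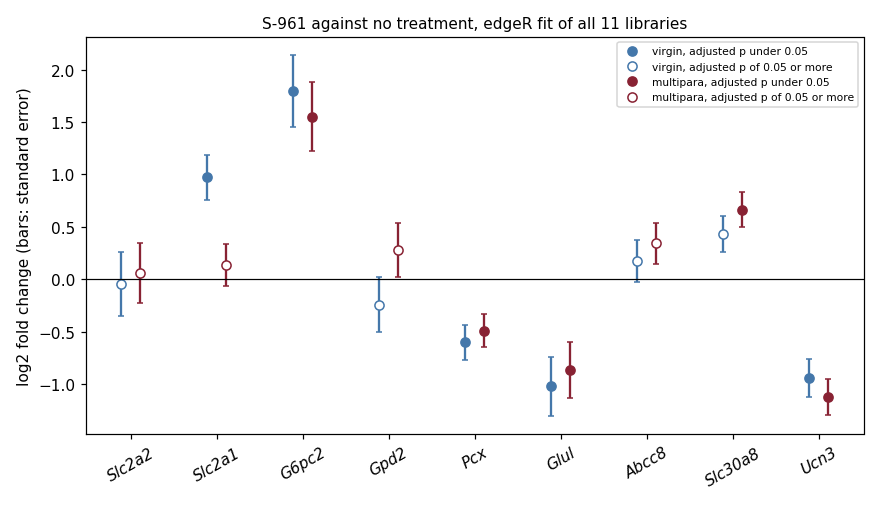
Log2 fold change of S-961 against no treatment for the 9 genes, in virgin and multipara islets, with standard errors from the fit of all 11 libraries and filled points at an adjusted p under 0.05. G6pc2 lay at 1.80 and 1.55 and Ucn3 at -0.94 and -1.12, and Slc2a2 lay near 0 in both.

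Glucose uptake is described first. Slc2a2 had 465 and 371 CPM in the virgin untreated libraries and 408, 473 and 331 in virgin S-961. It had 320 and 499 CPM in multipara untreated and 337, 359, 650 and 360 in multipara S-961. The groups overlapped throughout, and the library multipara S-961 3 was the highest of all 11. The log2 fold change with S-961 was -0.05 ± 0.30 (SE) in virgin (edgeR adjusted p = 0.919) and 0.06 ± 0.29 in multipara (adjusted p = 0.886). Without multipara S-961 3 the second value was -0.22.

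Slc2a1, the basal transporter GLUT1, had 6.58 and 6.33 CPM in virgin untreated and 12.3, 10.8 and 14.97 in virgin S-961. All 3 treated virgin libraries were above both untreated ones. The rise was 1.96-fold, a log2 fold change of 0.97 ± 0.22 (edgeR adjusted p = 0.00551). In multipara islets Slc2a1 had 9.55 and 7.25 CPM untreated and 7.72, 8.52, 10.5 and 10.3 with S-961, and these overlapped. Its log2 fold change there was 0.14 ± 0.20 (edgeR adjusted p = 0.611). Without virgin untreated 2 the virgin value was 0.95 with an adjusted p of 0.0587. With total counts in place of TMM the multipara value was 0.71 and called, against the all-gene median of 0.61.

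Of 13 listed glucose transporter genes, 12 were tested. In virgin islets 2 were higher with S-961, Slc2a1 and Slc2a13, a proton-coupled inositol transporter, at a log2 fold change of 0.90. The 2 lower ones were Slc2a3, the high-affinity GLUT3, at -0.99 (edgeR adjusted p = 0.0443), and Slc2a10 at -1.42 (adjusted p = 0.0137). In multipara islets edgeR called 0 of the 12, with 1 at an unadjusted p under 0.05. The nearest to a call were Slc5a1, the sodium-coupled transporter SGLT1, at 2.98 (adjusted p = 0.0953), and Slc2a6 at 1.08 (adjusted p = 0.121). Slc5a1 had 1265 counts in multipara S-961 3 and at most 204 in the other multipara S-961 libraries, and without that library it was at 1.10 (adjusted p = 0.263).

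G6pc2, which removes the phosphate from glucose-6-phosphate, had 2199 and 2050 CPM in virgin untreated and 7074, 7090 and 7990 in virgin S-961. It had 1542 and 1948 CPM in multipara untreated and 4923, 5976, 2594 and 6977 in multipara S-961. Every S-961 library was above every untreated library, and the library multipara S-961 3 was the lowest of the treated ones. The rise was 3.48-fold in virgin, a log2 fold change of 1.80 ± 0.34 (edgeR adjusted p = 0.00267), and 2.93-fold in multipara, 1.55 ± 0.33 (adjusted p = 0.00462). It was called under each of the alternatives in virgin, and in multipara under each but 1, since without multipara untreated 1 it was 1.40 with an adjusted p of 0.0517.

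Slc37a4, which carries glucose-6-phosphate into the endoplasmic reticulum where the phosphatase acts, went the other way from G6pc2. It fell with S-961 by 1.50 ± 0.16 on the log2 scale in virgin and by 1.34 ± 0.15 in multipara islets (edgeR adjusted p = 0.000166 and 0.000174). Hk3, a hexokinase of blood cells, was at -1.16 in virgin (adjusted p = 0.303) and at -2.83 in multipara (adjusted p = 0.00983). The multipara value rests on multipara untreated 1, the library with 1799 CPM of immune markers, which held 176 counts against 9 in multipara untreated 2. Without it Hk3 was at 0.06 (adjusted p = 0.959). G6pc3, the phosphatase found in most tissues, was at -0.17 and -0.34 (adjusted p = 0.467 and 0.127).

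Within a library the ratio of 2 genes does not depend on the scaling. The ratio of Ucn3 to G6pc2 per kb was 0.432 and 0.448 in virgin untreated and 0.605 and 0.557 in multipara untreated. With S-961 it was 0.0728, 0.0697 and 0.0561 in virgin and 0.0755, 0.0675, 0.206 and 0.0777 in multipara. All 7 treated libraries were below all 4 untreated ones. This follows from the levels, since each gene alone separated treated from untreated libraries, in opposite directions. The library multipara S-961 3 was the highest of the treated ones.

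**Figure D3:**
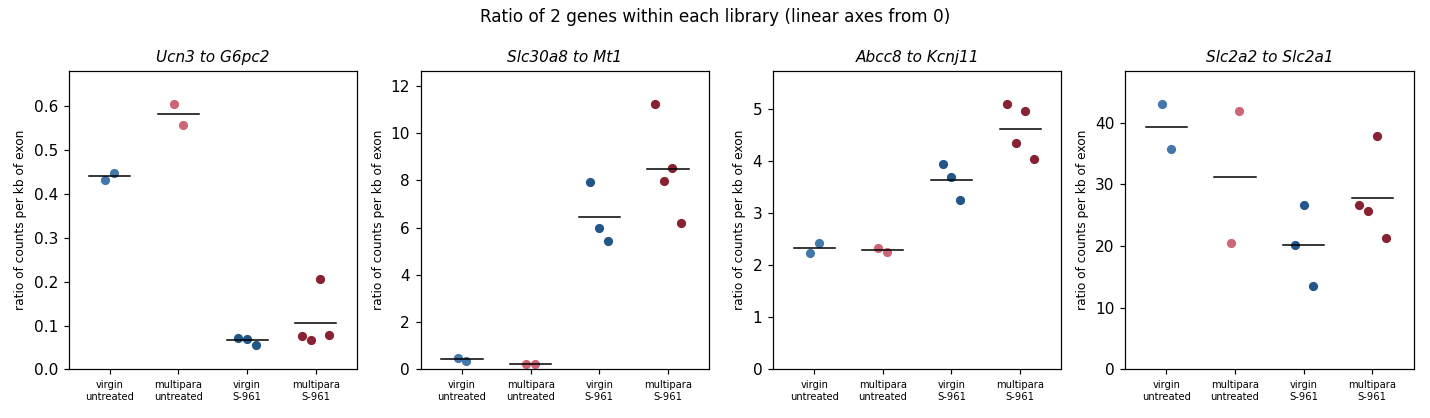
Ratio of counts per kb of merged exon between 2 genes in each library, with the group mean as a line, for Ucn3 to G6pc2, Slc30a8 to Mt1, Abcc8 to Kcnj11 and Slc2a2 to Slc2a1. The first ratio was lower, and the second and the third were higher, in each S-961 library than in any untreated library, and the last overlapped between the groups.

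Mitochondrial entry of glycolytic products is next. Gpd2 had 54.5 and 39.5 CPM in virgin untreated and 42.8, 41.5 and 34.8 in virgin S-961. It had 40.1 and 49.7 CPM in multipara untreated and 53.1, 40.8, 79.5 and 44.1 in multipara S-961. The groups overlapped, and multipara S-961 3 was again the highest. The log2 fold changes were -0.24 ± 0.26 and 0.28 ± 0.25 (edgeR adjusted p = 0.501 and 0.408). Its cytosolic partner Gpd1 was lower in both, at -0.60 (adjusted p = 0.0132) and -0.54 (adjusted p = 0.0168). Of the 10 genes of the NADH shuttles, 1 was higher and 3 lower in virgin and 2 were higher and 3 lower in multipara. Among them Mdh2, mitochondrial malate dehydrogenase, was at -0.51 in each and Slc25a13, the aspartate-glutamate carrier citrin, at 0.67 and 0.69.

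Pcx had 159 and 148 CPM in virgin untreated and 103, 112 and 87.2 in virgin S-961. It had 122 and 158 CPM in multipara untreated and 97.3, 89.5, 118 and 93.3 in multipara S-961. Every treated library was below every untreated library. It fell by 0.60 ± 0.17 on the log2 scale in virgin (edgeR adjusted p = 0.0160) and by 0.49 ± 0.16 in multipara (adjusted p = 0.0304). These are the smallest of the changes called in both groups. With total counts in place of TMM the multipara value turned to 0.11 and the virgin value was -0.13, neither called. Leaving out either virgin untreated library, or any of multipara S-961 1, 2 and 4 or multipara untreated 2, gave values of -0.66 to -0.28 with adjusted p of 0.0601 to 0.309.

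Pdha1, a subunit of pyruvate dehydrogenase, the competing route for pyruvate, was higher with S-961 at 0.75 in virgin and 0.58 in multipara (edgeR adjusted p = 0.00676 and 0.0193). The other listed subunits did not follow it. Mean Pdhb was 88.4 CPM untreated and 81.8 with S-961 in virgin, and 84.2 and 79.2 in multipara. Mean Dlat was 40.0 and 41.4 CPM in virgin, and 38.9 and 35.4 in multipara. Me2, mitochondrial malic enzyme, was higher at 0.92 and 0.81. Lower, like Pcx, were Mpc2, of the pyruvate carrier, at -0.66 and -0.75 (adjusted p = 0.0153 and 0.00641), and Idh1, cytosolic isocitrate dehydrogenase, at -0.79 and -0.41 (adjusted p = 0.00136 and 0.0261). Mpc1, also of the pyruvate carrier, did not fall in virgin, with means of 32.1 CPM untreated and 42.2 with S-961. In multipara its means were 35.2 and 32.7 CPM. In all, 3 of the 15 listed genes were higher and 4 lower in virgin, and 2 were higher and 3 lower in multipara. Among the 15 glycolysis genes 0 were higher, and 2 in virgin and 5 in multipara were lower. Aldoc, an aldolase, was at -1.82 and -1.56, Pfkl, a phosphofructokinase, at -0.79 and -0.61, and Eno2, an enolase, at -0.44 in multipara.

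Glul, glutamine synthetase, had 517 and 544 CPM in virgin untreated and 241, 270 and 271 in virgin S-961. It had 432 and 586 CPM in multipara untreated and 198, 204, 413 and 302 in multipara S-961. Treated and untreated libraries did not overlap, although multipara S-961 3 at 413 came close to multipara untreated 1 at 432. Glul fell by 1.02 ± 0.28 in virgin (edgeR adjusted p = 0.0162) and by 0.87 ± 0.26 in multipara (adjusted p = 0.0252). Without virgin S-961 1, or without either virgin untreated library, the virgin value was -1.06 to -0.97 with adjusted p of 0.0566 to 0.0914. Without multipara S-961 1 or 2, or without multipara untreated 2, the multipara value was -0.73 to -0.63 with adjusted p of 0.0514 to 0.201.

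Slc38a2, which takes up glutamine, was higher with S-961 at 0.58 in virgin and 0.63 in multipara (edgeR adjusted p = 0.0128 and 0.00759), against the direction of Glul. Glud1, glutamate dehydrogenase, was lower in virgin at -0.47 (adjusted p = 0.00495) and was at -0.19 in multipara (adjusted p = 0.151).

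The KATP channel was next in the pathway. Abcc8 had 822 and 911 CPM in virgin untreated and 1062, 1063 and 803 in virgin S-961. It had 781 and 922 CPM in multipara untreated and 1060, 869, 1337 and 1049 in multipara S-961. The groups overlapped, and the log2 fold changes were 0.17 ± 0.20 and 0.34 ± 0.19 (edgeR adjusted p = 0.540 and 0.186). With total counts in place of TMM they were 0.64 and 0.95 and called, against all-gene medians of 0.43 and 0.61.

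Kcnj11, the pore subunit Kir6.2 that assembles with SUR1, had 168 and 171 CPM in virgin untreated and 123, 131 and 112 in virgin S-961. In multipara it had 152 and 187 CPM untreated and 94.5, 90.7, 122 and 118 with S-961. After TMM scaling it was lower in each treated library than in any untreated library. Its log2 fold changes were -0.48 (edgeR adjusted p = 0.0390) and -0.67 (adjusted p = 0.00625). This fall is relative to the median gene, and no value with total counts is given for Kcnj11. The per kb ratio of Abcc8 to Kcnj11 was 2.23 and 2.42 in virgin untreated and 2.34 and 2.25 in multipara untreated. With S-961 it was 3.94, 3.70 and 3.26 in virgin and 5.10, 4.35, 4.97 and 4.04 in multipara. Treated libraries of both parity groups were above the untreated ones. The treated multipara libraries were above the treated virgin ones, the nearest being multipara S-961 4 at 4.04 and virgin S-961 1 at 3.94. This difference by parity was not tested and rests on the S-961 labels, which may not be right. Of the 4 genes of KATP channels, only Kcnj11 was called in either contrast.

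Among the granule and secreted products, Slc30a8 had 538 and 527 CPM in virgin untreated and 715, 734 and 705 in virgin S-961. It had 366 and 501 CPM in multipara untreated and 636, 593, 796 and 724 in multipara S-961. Every treated library was above every untreated one. The log2 fold change was 0.67 ± 0.17 in multipara (edgeR adjusted p = 0.0109) and 0.43 ± 0.17 in virgin (adjusted p = 0.0752), where DESeq2 gave 0.45 (adjusted p = 0.0199) and total counts in place of TMM gave 0.90 (adjusted p = 0.00282). Without multipara untreated 1, the library with the lowest Slc30a8, the multipara value was 0.46 with an adjusted p of 0.134.

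The metallothionein genes of the zinc list moved much more than Slc30a8. Mt1 and Mt2 encode metallothioneins, which bind zinc in the cytosol. Mt1 had 675 and 940 CPM in virgin untreated and 940 and 1360 in multipara untreated. With S-961 it had 57.1, 77.5 and 82.2 CPM in virgin and 35.8, 46.9, 59.2 and 73.9 in multipara. The fall was 11.2-fold in virgin and 21.3-fold in multipara (edgeR adjusted p = 9.06e-05 and 2.16e-05), and that of Mt2 was 12.5-fold and 24.0-fold. Slc30a7, a zinc transporter of the secretory pathway, was higher at 1.71 and 1.48. Of the 11 zinc genes tested out of 12 listed, 4 were higher and 2 lower in virgin, and 3 were higher and 3 lower in multipara. The per kb ratio of Slc30a8 to Mt1 was 0.233 to 0.504 in the untreated libraries and 5.42 to 11.2 in the treated ones. That separation also follows from the opposite separations of the 2 genes.

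Ucn3 had 711 and 688 CPM in virgin untreated and 385, 370 and 335 in virgin S-961. It had 698 and 812 CPM in multipara untreated and 278, 302, 401 and 406 in multipara S-961. After TMM scaling the highest treated library, at 406 CPM, was far below the lowest untreated one, at 688. As a share of all counts the gap was narrow, with 0.0326% to 0.052% with S-961 and 0.0548% to 0.059% untreated. Ucn3 fell by 0.94 ± 0.18 on the log2 scale in virgin (edgeR adjusted p = 0.00282) and by 1.12 ± 0.17 in multipara (adjusted p = 0.000792). The multipara call held under all 13 alternatives, and the virgin call under 11 of 12, the exception being total counts.

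Crhr2, the receptor for urocortin 3 on delta cells, was near the limit of the depth. It had 1.34 and 2.30 CPM in virgin untreated and 0.463, 0.664 and 0.808 in virgin S-961, and was lower at a log2 fold change of -1.49 (edgeR adjusted p = 0.0207). In multipara it had 1.07 and 1.32 CPM untreated and 1.57, 1.13, 1.90 and 0.886 with S-961, which overlapped. Crhbp, which binds peptides of this family, was at -2.13 in virgin (adjusted p = 0.0354) and -0.74 in multipara (adjusted p = 0.390). Of 4 genes tested out of 7 in this list, 3 were lower in virgin and 1, Ucn3, in multipara. Sst, the delta cell hormone, was also lower in virgin, at -1.39, and was -0.49 in multipara (adjusted p = 0.123). The part of a change in delta cell RNA in the Crhr2 values was not tested.

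Beta cell markers did not move as a block alongside these genes. Ins1 was at -1.42 in virgin and -1.82 in multipara and Ins2 at -1.55 and -1.99. Mafa, a transcription factor of mature beta cells, was at 1.81 and 0.90, with 183 to 269 CPM in the untreated libraries and 327 to 796 in the treated ones. Of the 6 beta cell markers, 2 were higher, 2 lower and 2 not called in each parity group.

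Multiparity was compared with virginity in each treatment state, and 0 of the 9 members were called in either by edgeR or DESeq2. At an unadjusted p under 0.05 by edgeR there was 1 member, Slc2a1, with S-961 and 0 without. With S-961, edgeR called 0 of 16784 genes (0%), with 1630 at an unadjusted p under 0.05, and DESeq2 called 369 genes. Without treatment it called 0 of 15812 (0%), with 889 at an unadjusted p under 0.05, and DESeq2 called 56. Without the library multipara S-961 4, edgeR called 525 genes, none of them among the 9, and the members' values stayed within their errors. With S-961 the groups did not overlap for 0 members higher and 2 lower, where 5.23% and 3.64% of all genes did the same. Without treatment these were 1 higher and 2 lower, against 17.3% and 18.8% of all genes. These 2 comparisons share no library, but each shares its libraries with the S-961 contrasts.

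**Figure D4:**
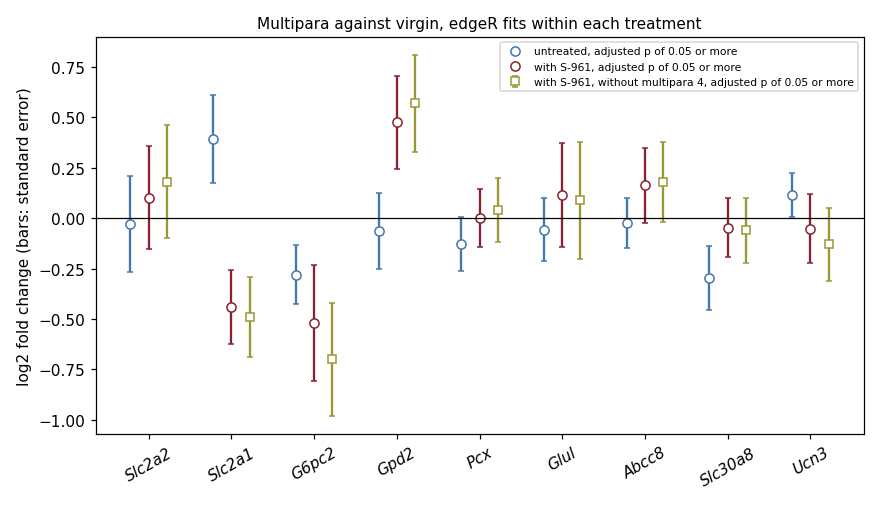
Log2 fold change of multipara against virgin for the 9 genes without treatment, with S-961, and with S-961 after leaving out the library multipara S-961 4, with standard errors. All points are open since none had an adjusted p under 0.05, and Slc2a1 lay at 0.39 without treatment and at -0.44 with S-961.

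The largest difference among the members with S-961 was in G6pc2. The 3 virgin libraries at 7074 to 7990 CPM were all above the 4 multipara libraries at 2594 to 6977, of which the highest was multipara S-961 4. The log2 fold change was -0.52 ± 0.29 (edgeR adjusted p = 0.605). Leaving out multipara S-961 4 gave -0.70, and leaving out multipara S-961 3, the lowest library, gave -0.30. Without treatment G6pc2 was at -0.28 ± 0.15 (adjusted p = 0.719), with both multipara libraries below both virgin ones.

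Slc2a1 was the other member whose S-961 groups did not overlap. Its virgin libraries had 10.8 to 14.97 CPM and its multipara libraries 7.72 to 10.5. The log2 fold change was -0.44 ± 0.18, with an unadjusted p of 0.0391 and an adjusted p of 0.485 by edgeR. Without treatment the multipara libraries, at 9.55 and 7.25 CPM, were above the virgin ones at 6.58 and 6.33, at 0.39 ± 0.22 (adjusted p = 0.719). The difference between these multiparity effects, tested as an interaction, was -0.84 ± 0.29, with an unadjusted p of 0.0150 and an adjusted p of 0.704. In the interaction edgeR called 0 of the 9 members and 0 of 17996 genes (0%), with 1179 at an unadjusted p under 0.05, and DESeq2 called 79.

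The remaining members were not called by parity. With S-961, Gpd2 was at 0.48 ± 0.23 (edgeR adjusted p = 0.554), with multipara S-961 3 at 79.5 CPM, and 0.22 without that library. Slc30a8 without treatment had 366 and 501 CPM in multipara and 538 and 527 in virgin, at -0.30 ± 0.16 (adjusted p = 0.719). Leaving out multipara untreated 2 kept only the lowest library in that group and gave -0.53 with an adjusted p of 0.0246, in a fit that assumes the lone library varies like the virgin ones. Abcc8, Pcx, Glul, Slc2a2 and Ucn3 lay between -0.13 and 0.16 in both comparisons. An adjusted p over the threshold does not show that their levels were the same.

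Their pathway partners were not called by parity either. Kcnj11 was at -0.18 ± 0.14 with S-961 and at 0.00 ± 0.11 without treatment. Slc2a3 was the transporter with the smallest p with S-961, at 1.10 ± 0.29 (edgeR adjusted p = 0.315), and Crhr2 was at 1.11 ± 0.40 (adjusted p = 0.411). Hk1 and Hk3, hexokinases, which phosphorylate glucose at low concentrations, were at 0.44 and 1.20 (adjusted p = 0.463 and 0.464). Slc25a10, the dicarboxylate carrier, was at 0.94 and Idh1 at 0.45 (adjusted p = 0.329 for each).

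The library multipara S-961 3 differed from its group in several members at once. It had the highest Slc2a2, Abcc8, Slc30a8, Glul, Pcx and Gpd2 of the 4 multipara S-961 libraries, and the lowest G6pc2. Slc2a1 was also highest there, at 10.5 CPM, close to the 10.3 of multipara S-961 4. The TMM scaling factor of multipara S-961 3, at 1.30, was the largest of all 11 libraries. The insulin share of multipara S-961 3, 13.2%, was the lowest of all 11 libraries, next to 13.3% in multipara S-961 1. Its 5 stromal markers summed to 274 CPM, against 123 to 147 in the other multipara S-961 libraries, and its acinar markers, at 10083 CPM, lay between the 4779 and the 14353 CPM of the others. The part of these markers was not tested.

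The genes most like each member over the 11 libraries were found by the root mean square difference of centred log2 CPM, among 7522 candidates. For G6pc2 these were Bhlha15, the transcription factor MIST1 of secretory cells, at 0.127, and Mgat2, a Golgi glycosyltransferase, at 0.149, where the standard deviation of G6pc2 itself was 0.918. For Ucn3 they were Spg21 at 0.0799 and 2810013P06Rik at 0.101, against a standard deviation of 0.557. Glul was nearest to Adi1 and Camk2n1, at 0.161 and 0.166, and Pcx to the zinc transporter gene Slc39a3 and to Rab22a, at 0.0678 and 0.0775. Slc2a2 and Gpd2 shared a neighbour, Epb41l3, at 0.156 and 0.132. Slc30a8 was nearest to Fpgt and Bmpr1a, Abcc8 to Vezf1 and Ky, and Slc2a1 to Il13ra1 and Sat1. The libraries fall into 4 groups, and a short distance describes a shared profile over these only.

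The members lie on 8 chromosomes of GRCm38, and their counts were taken over the exons of these genes. G6pc2 (ENSMUSG00000005232, chr2:69211073-69227841, plus strand) has 1974 bases of merged exon, and Gpd2 (ENSMUSG00000026827, chr2:57237635-57370719, plus) lies on the same chromosome. Slc2a2 is ENSMUSG00000027690 at chr3:28697903-28731359 (plus), and Slc2a1 is ENSMUSG00000028645 at chr4:119108711-119137983 (plus). Abcc8 is ENSMUSG00000040136 at chr7:46104523-46180033 (minus), and Pcx is ENSMUSG00000024892 at chr19:4510472-4621752 (plus). Slc30a8 is ENSMUSG00000022315 at chr15:52295553-52335798 (plus), Glul is ENSMUSG00000026473 at chr1:153899944-153909723 (plus), and Ucn3 is ENSMUSG00000044988 at chr13:3940688-3945349 (minus). Exons of Slc2a1, Glul and Gpd2 overlap those of Gm12868, Teddm2 and A930012O16Rik on the other strand, and the strand setting of the counting is not given in the sources used here. These 3 antisense genes had at most 1, 34 and 63 counts in a library. Mir8114, within Glul on the same strand, had 0 counts in each library.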

How the data were processed

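Islet RNA was extracted with TRIzol and made into TruSeq Stranded mRNA libraries. The authors deposited 1 table of expected counts per library, estimates of reads per gene that are not normalized. The submitters' processing notes name STAR, RSEM and GRCm38 (mm10), and versions and the strand setting are not given in the sources used here. All 55536 identifiers were matched to GENCODE M21, and counts were rounded. At a tolerance of 1e-06, counts were whole in all 11 libraries for 7 members, and in 6 for Glul and Gpd2, with a deviation of at most 0.42 counts.

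Tests used edgeR 4.0.16 in R 4.3.3 (TMM, filterByExpr with a minimum count of 10 and a minimum total of 15, quasi-likelihood F-test), with Benjamini-Hochberg adjustment over all genes tested and a threshold of 0.05. Each parity comparison used only the libraries of its 2 groups, and the S-961 contrasts and the interaction came from 1 fit of all 11. Filtering left 15812 to 17996 genes, and all 9 members passed in each fit. The code was tested on simulated data. Alternatives were DESeq2 1.42.0, RLE size factors, no filter, Ins1 and Ins2 left out before scaling, the other set of libraries, a replicate block, each library left out, and total counts in place of TMM, the last added after seeing the data. Groups followed the labels, and no library repeated another, with a chi-square statistic per gene of at least 7.32 within groups. It was 7.32 between virgin S-961 1 and 2, 8.27 between the virgin untreated libraries, and 29.45 to 90.29 for the other pairs. Those virgin pairs were thus more alike than the rest, and whether they carry the full spread between animals was not tested. Total counts per library ran from 22028507 to 32234146.

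The members, the 9 pathway lists and the marker lists were chosen with earlier results of these data known. The rule for other genes named up to 3 genes per list with the largest change among those called, or else 2 with the smallest p, and the direct partners Kcnj11 and Crhr2 always. Some genes of these lists are not reported here, nor are the counts of 2 lists. Glud1, G6pc3, Mpc1, Pdhb and Dlat were named after their values were seen. Mafa, Ins1, Ins2, Sst and the library markers came from the marker lists. Likeness used genes with a mean log2 CPM of at least 4. Promoter windows are RefSeq's, on GRCm38.p6. Figures were drawn with matplotlib 3.10.9.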

Additional observations from a re-analysis of the deposited data

Results flagged for a closer look

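In the multipara S-961 group, Slc2a2 had 1 library apart from the others. The 650 CPM of multipara S-961 3 was separated from the next library, at 360 CPM, by 0.927 of the group's whole range, above Dixon's critical value for a group of 4 libraries. The same measure was taken for all 9 members in this group, the only group of 4 libraries, and stayed below that value for the other 8. Chance flags about 1 in 20 such groups. No cause was tested.

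For Slc2a1, the multiparity effect pointed in opposite directions with and without S-961. Both multipara untreated libraries were above both virgin untreated ones, and all 4 multipara S-961 libraries were below all 3 virgin S-961 ones. The interaction was -0.84 ± 0.29 on the log2 scale (edgeR unadjusted p = 0.0150, adjusted p = 0.704 over 17996 genes), so the difference did not pass the correction. Its direction rests on the parity labels of the S-961 libraries, which may not be right, since Lrrc55 also turned. Untreated, Lrrc55 had 22.8 and 24.9 CPM in multipara and 0.727 and 0.846 in virgin. With S-961, Lrrc55 had 0.596, 0.320 and 1.96 CPM in multipara 1 to 3, 4.43 in multipara 4 and 5.34 to 7.54 in virgin. With those labels exchanged the S-961 part of the effect would change sign. The interaction lay between -1.01 and -0.62 over the 17 alternatives, with adjusted p from 0.265 to 1. The counts behind it were 115 to 463 per library, the lowest among the members.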

How the results depend on the processing

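Over 603 recomputed values of single members, 529 kept their direction and their side of the threshold, 25 lost a call, 8 gained one and 41 changed sign. Of the 41, Pcx with S-961 in multipara was the only value called before, and 0 were called after. Under DESeq2, RLE size factors and without Ins1 and Ins2 in the scaling, each of the 5 member calls with S-961 held in both parity groups, and without a filter Pcx in multipara did not (-0.44, adjusted p = 0.0565). With total counts in place of TMM, chosen after seeing the data, the sign turned with S-961 for Pcx in multipara (0.11) and for Slc2a2 (0.42) and Gpd2 (0.22) in virgin, and by parity with S-961 for Pcx (0.06), Slc30a8 (0.02) and Ucn3 (0.01).

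The replicate numbers were not taken to pair the libraries. Correlations of same-numbered deviations from the group mean were 0.119, -0.086 and -0.004 by parity with S-961. They were -0.098 and 0.13 for S-961 in virgin, and -0.027 and 0.109 in multipara. By parity untreated there were 2 pairs only, at 0.278. With 2 libraries per group the deviations mirror each other, so both pairs must give the same value. With the replicate block, 3 members were called with S-961 in multipara, where Slc2a1 was at -0.04, and by parity with S-961 Pcx was at 0.03 and Glul at -0.01. The block called 342 genes by parity with S-961 and 34 in the interaction.

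By parity DESeq2 called 369 genes with S-961 and 56 without, and 79 in the interaction, and without a filter edgeR called 3 untreated and 4 in the interaction. On the multipara libraries alone, S-961 called 2 members and 4428 genes.

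Leaving out 1 library gave 2 to 5 members and 3053 to 6121 genes for S-961 in virgin, and 3 to 5 members and 3618 to 7451 genes in multipara. By parity it gave 0 to 525 genes with S-961, and 0 to 1 members and 0 to 1738 genes without, and 0 to 45 genes in the interaction. The 525 came without multipara S-961 4 and the 1738 without multipara untreated 2. Signs turned within these ranges. By parity with S-961, Slc2a2 ran from -0.19 to 0.22, Pcx from -0.10 to 0.07, Slc30a8 from -0.13 to 0.02, Glul from -0.15 to 0.24 and Ucn3 from -0.14 to 0.03. Untreated, Slc2a2 ran from -0.37 to 0.23, Abcc8 from -0.14 to 0.07, Pcx from -0.32 to 0.02, Glul from -0.28 to 0.12 and Gpd2 from -0.28 to 0.18. With S-961, Slc2a2 ran from -0.20 to 0.13 and Gpd2 from -0.46 to 0.01 in virgin, and Slc2a2 from -0.22 to 0.42 and Slc2a1 from -0.04 to 0.35 in multipara. In the interaction, Slc2a2 ran from -0.18 to 0.47, Pcx from -0.07 to 0.32 and Glul from -0.09 to 0.40. The causes were not tested. Crhr2, Crhbp, Hk3 and Slc2a10 had at most 176 counts in any library.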
